A study of Mus musculus with 27 samples.

Results

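Mouse genes named Zfp followed by a number encode zinc finger proteins, and 324 of them were described across microglia, microglia transduced with ND1, and cortical neurons. They were chosen by symbol and level: of 364 symbols that start with Zfp and a digit, the 324 with at least 1 FPKM in at least 3 of the 15 RNA-seq libraries were kept. FPKM is a level scaled to the length of the transcript and the number of fragments in the library. In all, 13602 genes passed the same filter. The other 40 symbols stayed below it, 3 of them at 0 in every library, and no library gave any of the 40 more than 1.53 FPKM.

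The 15 RNA-seq libraries formed 5 groups of 3, all from wild-type C57BL/6 mice, with cells taken from the cortex at postnatal day 1. Control microglia were labelled day 2 or day 7. Microglia with the treatment ND1-transduction carried the same 2 days as labels. They had received lentiviral ND1 and lentiviral M2rtta, a doxycycline-dependent activator, with polybrene, then an iN medium of Neurobasal, B27, BDNF, GDNF and NT3 and a single dose of doxycycline. Cortical neurons, labelled control and with no day, grew in Neurobasal with B27. The labels do not spell out ND1, do not give the medium of the control microglia, and do not say that control cells received a virus or doxycycline, so these factors cannot be told apart from ND1. They also do not say whether the 3 libraries of a group came from separate cultures, so each p-value measures only the spread between these libraries, which may be technical.

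Most Zfp genes encode proteins with arrays of C2H2 fingers, small folds that hold a zinc ion and read DNA bases in sequence. Many of these also carry a KRAB domain, which recruits Trim28 and, through it, histone methyltransferases, heterochromatin proteins and deacetylases that silence the bound site. KRAB genes lie in clusters that grew by duplication, and many of the proteins bind retroelements or imprinted regions. A few genes with a Zfp name are of another kind: Zfp36, Zfp36l1 and Zfp36l2 have CCCH fingers, bind AU-rich elements in messenger RNA and speed its decay. The Zfp name is therefore a naming class, not a domain class, and the fingers and KRAB domains of each member were not counted here.

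RefSeq entries were matched for all members, 321 by symbol and 3 through a synonym, of which 320 were protein-coding, 2 transcribed pseudogenes and 2 long noncoding RNAs. In 218 members every library reached 1 FPKM. Another 20 reached it only in ND1 day 7 or neuron libraries, among them Zfp423 and Zfp599 in ND1 day 7 only and Zfp804b in neurons only; no member reached it only in control microglia. Members that entered only through a group where they were high had to differ between groups, so counts over all members describe them and support nothing further. Just inside the filter were Zfp354b, Zfp114 and Zfp97, where the third highest library value was 1.07, 1.07 and 1.15 FPKM. Just outside were Zfp521, Zfp78 and Zfp964 with 0.916, 0.937 and 0.991 FPKM.

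Across libraries, FPKM sums ran from 429013 to 739846 and were lower in every neuron and ND1 day 7 library than in the other libraries, and 10709 to 12092 genes reached 1 FPKM. Read counts were not given in the files, so depth is described only by the FPKM worth of 1 read, which ranged from 0.727 to 1.13 times that of the first control day 2 library. Neurod1 was at 1.04 to 2.16 FPKM in control libraries, 3073 to 3454 in ND1 day 2 and 32.5 to 36.7 in ND1 day 7. The summed FPKM of 8 microglial markers was 7150 to 7397 in control day 7, 280 to 370 in ND1 day 7 and 16.0 to 17.4 in neurons, where P2ry12 and Tmem119 were below 0.1 FPKM. The summed FPKM of 6 neuronal markers was 7.73 to 11.5, 2536 to 2563 and 1460 to 1531 in the same order. These are bulk samples, in which fewer cells of a type and less RNA per cell cannot be told apart. The part of the marker changes in the results below was not tested.

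As a class, the Zfp genes stood at low levels and were higher in the ND1 day 7 and neuron libraries than in control microglia. The median member mean was 3.13 FPKM in control day 2, 2.44 in control day 7, 3.54 in ND1 day 2, 4.88 in ND1 day 7 and 4.87 in neurons. Over all tested genes the median mean stayed between 8.24 FPKM in neurons and 8.83 in ND1 day 2. The members' summed FPKM was 1763 to 1793 in control day 7 libraries and 2421 to 2510 in ND1 day 7 libraries. As a share of the library's FPKM this was 0.238% to 0.254% against 0.525% to 0.561%, the share rising further than the sum because the FPKM totals also differed. Of the 324 members, 128 had their highest group mean in ND1 day 7, 88 in neurons, 61 in control day 2, 28 in control day 7 and 19 in ND1 day 2.

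At day 7, 121 members were called higher in ND1 than in control microglia and 22 lower, 143 in all. A call here is a Benjamini-Hochberg adjusted p under 0.05 from limma over all 13602 genes together with a change of at least 1 in log2(FPKM + 1), a scale on which low genes change by less than their ratio. Over all tested genes 25.7% were called higher and 24.5% lower (50.2% in all), so the members' 37.3% higher stood above the background and their 6.79% lower stood below it. On this scale a gene with a control mean under 1 FPKM cannot be called lower. Of the 324 members, 257 had a mean of at least 1 FPKM in control day 7. No background of like level was computed, and the part of the members' low levels in these shares was not tested. The median change of the members was 0.74 on the log2 scale, against 0.04 for all tested genes. Among the 218 members at 1 FPKM or more in every library, 68 (31.2%) were called higher and 12 (5.5%) lower, with a median of 0.56. The share over all genes that reached 1 FPKM in every library was not computed, so these have no like background. By adjusted p alone, 229 members were higher and 69 lower, against 46.5% and 44.2% of all tested genes. Of all members, 244 (75.3%) had a higher mean in ND1 day 7 than in control day 7, against 51.2% of all tested genes. Under quantile normalization the counts were 87 higher and 30 lower, which moved the share of higher calls among the members' calls from 84.6% to 74.4%. In that setting 24.2% of all tested genes were called higher and 26.2% lower. The 87 of 324 members called higher thus lay near the background there, while the 30 called lower stayed below it. The members' median was then 0.44, against -0.02 for all tested genes.

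**Figure D1:**
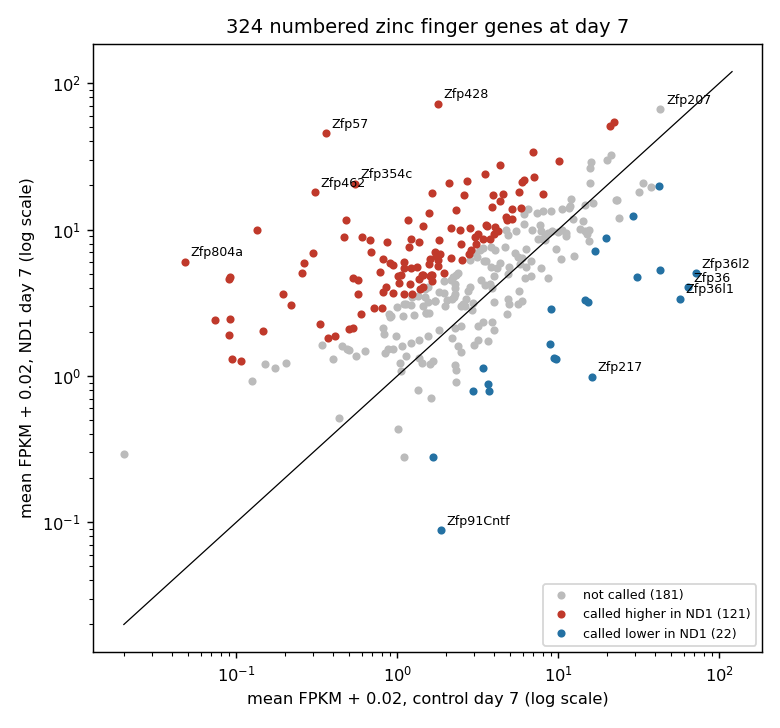
Mean FPKM of each of the 324 Zfp genes in control day 7 (x axis) and ND1 day 7 (y axis), both on log scales with 0.02 FPKM added so that values of 0 can be drawn. Points are single genes, red where called higher (121), blue where called lower (22) and grey where not called, and the line marks equal levels; Zfp57, Zfp428 and Zfp462 stand far above it and the Zfp36 genes far below.

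On the log2(FPKM + 1) scale the largest rise was that of Zfp57. It encodes a KRAB protein that binds methylated imprinting control regions and keeps their methylation together with Trim28. The gene spans chr17:37001163-37010729 (GRCm38). It was at 0.288, 0.298 and 0.431 FPKM in the control day 7 libraries, 44.2, 45.1 and 47.1 in ND1 day 7, and 45.4, 47.7 and 42.9 in neurons. ND1 day 7 and control day 7 thus did not overlap, and ND1 day 7 lay within the range of the neurons. The change at day 7 was 5.12 on the log2 scale (SE 0.09, adjusted p = 1.35e-15). ND1 day 7 and neurons differed by 0.01 (SE 0.09, adjusted p = 0.965). At day 2 Zfp57 was already at 10.4, 7.43 and 7.77 FPKM in ND1 libraries, against 0.689, 0.798 and 0.726 in controls. As a ratio of day 7 means, control over ND1, Zfp804a (0.00469) and Zfp804b (0) had lower values than Zfp57 (0.00746). Both ratios rest on control means at or near 0, and Zfp804b was not called at day 7. They therefore do not rank these genes above Zfp57.

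Bisulfite sequencing of 1 control and 1 ND1 library, whose day is not given, provided a methylated fraction per CpG at these genes, with no read counts behind it. Zfp57 has several annotated starts, and its deposited CpG values differ between them. Shown here are the 300 bases (250 before and 50 after the start) at the first start listed in RefSeq (GRCm38.p6), chr17:37003416-37003715 on the plus strand, and at the third, chr17:37002275-37002574 on the plus strand. Capitals mark the CpGs with a value in both libraries.
Zfp57 start 1: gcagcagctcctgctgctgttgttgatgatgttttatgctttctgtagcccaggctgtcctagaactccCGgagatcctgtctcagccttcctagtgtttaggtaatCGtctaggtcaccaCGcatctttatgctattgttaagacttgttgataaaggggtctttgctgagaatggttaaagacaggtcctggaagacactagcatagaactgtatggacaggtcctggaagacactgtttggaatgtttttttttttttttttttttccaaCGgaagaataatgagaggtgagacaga
Zfp57 start 3: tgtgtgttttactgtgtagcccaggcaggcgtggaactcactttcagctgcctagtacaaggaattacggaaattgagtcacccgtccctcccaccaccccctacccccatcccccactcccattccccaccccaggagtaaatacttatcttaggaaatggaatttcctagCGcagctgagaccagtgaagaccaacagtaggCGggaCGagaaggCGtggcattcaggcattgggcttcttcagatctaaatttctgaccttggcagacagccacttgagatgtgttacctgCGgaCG
At the first start the 4 marked CpGs had a mean fraction of 0.721 in control and 0.748 in ND1 cells. The CpGs at -181, -143 and -129 from the start had 0.897, 0.787 and 0.849 in control. The CpG at 24 after it had only 0.353 in control and 0.467 in ND1 cells. At the third start the 6 marked CpGs averaged 0.0365 and 0.0178. The annotation thus places a start window with mostly methylated CpGs and one with unmethylated CpGs within the same gene in both libraries.

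Of the 6 tested KRAB proteins listed for imprinting or retroelement silencing, 3 rose at day 7 (50% against 25.7% of all tested genes) and 1 fell (16.7% against 24.5%). Because the list was chosen with earlier results of these data known, these shares are only a description. Besides Zfp57, the 2 that rose bind endogenous retroviral sequences: Zfp932 went from 3.89 ± 0.357 to 17.3 ± 2.22 FPKM (SD, n = 3 each; 1.90 on the log2 scale, SE 0.10, adjusted p = 1.64e-10) and Zfp708 from 0.697 ± 0.236 to 2.90 ± 0.372 (1.21, SE 0.11, adjusted p = 1.04e-07), a call lost at 0.73 under quantile normalization. Zfp809, which silences murine leukaemia virus by binding its primer binding site, fell from 8.92 ± 0.688 to 2.84 ± 0.0783 FPKM (-1.37, SE 0.06, adjusted p = 9.88e-12). Zfp445, a second guardian of imprints, was at 16.0 FPKM in control day 7 and 28.8 in ND1 day 7, a change of 0.81 that stayed under the size threshold. Zfp568, which represses a placental Igf2 transcript, was at 2.29 and 0.894 FPKM (-0.80). Neurons and ND1 day 7 did not differ by a call in any of the 6, whose differences ran from 0.01 to 0.71. The listed Zfp819 did not reach 1 FPKM in 3 libraries.

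Zfp708 showed a start-dependent pattern of methylation as well, and both windows are printed for that reason, the first at chr13:67097927-67098226 and the second at chr13:67081496-67081795, both on the minus strand and read 5′ to 3′ along the gene.
Zfp708 start 1: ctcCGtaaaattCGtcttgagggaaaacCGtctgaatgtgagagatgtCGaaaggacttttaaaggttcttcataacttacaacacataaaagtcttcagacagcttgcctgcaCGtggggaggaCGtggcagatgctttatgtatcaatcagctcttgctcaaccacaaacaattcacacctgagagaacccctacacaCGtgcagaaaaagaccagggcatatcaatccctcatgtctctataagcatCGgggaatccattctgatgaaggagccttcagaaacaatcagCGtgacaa
Zfp708 start 2: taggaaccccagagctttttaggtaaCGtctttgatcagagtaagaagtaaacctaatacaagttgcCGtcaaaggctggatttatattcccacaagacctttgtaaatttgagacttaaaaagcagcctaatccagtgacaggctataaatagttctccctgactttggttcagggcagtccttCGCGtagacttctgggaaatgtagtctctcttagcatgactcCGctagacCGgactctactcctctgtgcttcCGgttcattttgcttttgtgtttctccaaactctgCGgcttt
The 9 marked CpGs of the first start had a mean fraction of 0.872 in control and 0.900 in ND1 cells, and single CpGs ranged from 0.731 to 0.943 in control. The 8 marked CpGs of the second start averaged 0.0225 and 0.0104. The first start was thus methylated and the second was not in both libraries, and Zfp708 RNA was higher in ND1 than in control cells at day 7.

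The partners through which KRAB proteins act, none of them members, were compared alongside: 11 of 25 tested were called higher at day 7 and 1 lower, against the background of 25.7% and 24.5%. Earlier results of these data were known when these partners were listed, so the counts are a description. Trim28, the corepressor itself, was at 40.3 ± 1.51 FPKM in control day 7 and 113 ± 3.84 in ND1 day 7 (1.46, SE 0.04). Cbx5, which encodes the heterochromatin protein HP1 alpha, was at 5.78 and 53.2 FPKM (3.00), and the deacetylase gene Hdac2 at 21.6 and 179.6 (3.00). Setdb1, the histone H3 lysine methyltransferase of the complex, was at 15.2 and 18.1 FPKM (0.24), under the size threshold. Hdac1, the paralogue of Hdac2, was lower in ND1, at 31.9 and 18.8 FPKM (-0.73), as were Chd4 (-0.57) and Uhrf1 (-0.81), each under the size threshold. The single listed partner called lower was Daxx, a histone H3.3 chaperone, at 44.2 and 14.1 FPKM.

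Among 14 tested genes listed for neural development, 9 rose at day 7 (64.3%, against 25.7% of all tested genes) and 1 fell (7.14%, against 24.5%). The list was chosen with earlier results of these data known, so these shares are a description and support nothing further. Zfp462, whose human counterpart is a neurodevelopmental disorder gene, was at 0.238, 0.287 and 0.336 FPKM in control day 7 and 17.9, 17.7 and 18.2 in ND1 day 7, with no overlap (3.88, SE 0.07, adjusted p = 1.09e-15). In neurons it was at 3.86, 3.57 and 3.07 FPKM, so every ND1 day 7 library stood above every neuron library (2.08, SE 0.07, adjusted p = 5.30e-12). Zfp804a, whose human counterpart is linked to schizophrenia risk, was at 0.0282 FPKM in control day 7, 6.02 in ND1 day 7 and 14.2 in neurons, below neurons by a log2 difference of -1.12 (SE 0.06). Its relative Zfp804b read 0 in all control day 7 libraries, 0.230, 0.325 and 0.259 FPKM in ND1 day 7 and 1.74, 1.51 and 1.40 in neurons.

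The other called neural genes rose by less than Zfp462 and Zfp804a. Zfp536, which restrains neuronal differentiation, was at 0.0541 FPKM in control day 7, 2.39 in ND1 day 7 and 4.92 in neurons (1.68 at day 7, SE 0.05). Zfp365 went from 0.508 to 4.67 FPKM (1.91), Zfp292 from 3.55 to 10.8 (1.38) and Zfp618 from 0.0696 to 1.90 (1.44). Zfp609, needed for migration of cortical neurons, went from 4.71 to 12.2 FPKM (1.22), and Zfp704 from 4.33 to 27.5 (2.42). Zfp423, a partner of Ebf factors in neural precursors, reached 1.98, 1.73 and 1.66 FPKM in ND1 day 7 against 0.258 to 0.422 in control day 7 and 0.246 to 0.394 in neurons. Since Zfp423 passed the filter through ND1 day 7 alone, its values are a description, although it is among the counts. Its day 7 change was 1.04, near the size threshold, and missed it at 0.49 under quantile normalization and at 0.996 and 0.994 without ND1 day 7 or control day 7 replicate 1. Zfp423 and Zfp704 were also called higher in ND1 day 7 than in neurons, Zfp423 not under quantile normalization (0.77).

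The neural gene that fell was Zfp703, a corepressor of the NLZ family, from 30.9 ± 2.80 to 4.73 ± 0.193 FPKM (-2.47, SE 0.07, adjusted p = 1.08e-13). Its family partner Zfp503, known for its part in striatal development, was at 1.32 and 0.780 FPKM (-0.38). Zfp335, whose human counterpart is a microcephaly gene, was at 7.44 and 8.53 FPKM (0.18), and Zfp488, a factor of oligodendrocyte differentiation, at 4.78 and 2.62 (-0.67). None of these last 3 reached the size threshold.

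Several of the largest rises belonged to genes outside the listed groups. Zfp428 was at 1.43, 1.83 and 2.04 FPKM in control day 7, 72.9, 71.7 and 72.2 in ND1 day 7, and 52.4, 59.0 and 57.6 in neurons. Control libraries lay far below the other 2 groups, and ND1 day 7 above neurons (0.36, SE 0.10, adjusted p = 0.00400), a difference under the size threshold. The day 7 change was 4.73 (SE 0.10, adjusted p = 3.73e-15), and Zfp428 became the Zfp gene with the highest mean in ND1 day 7. Its promoter, chr7:24506837-24507136 on the plus strand, is shown as an unmethylated start of a gene that rose, with 19 marked CpGs averaging 0.0161 in control and 0.00863 in ND1 cells.
Zfp428 start: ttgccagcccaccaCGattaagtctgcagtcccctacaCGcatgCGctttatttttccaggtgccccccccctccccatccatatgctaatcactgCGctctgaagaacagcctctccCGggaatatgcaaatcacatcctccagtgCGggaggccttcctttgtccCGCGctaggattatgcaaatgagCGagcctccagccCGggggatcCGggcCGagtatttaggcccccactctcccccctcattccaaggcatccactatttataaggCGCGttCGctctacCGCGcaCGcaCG
Zfp354c, a KRAB repressor, was at 0.644, 0.497 and 0.443 FPKM in control day 7 and 19.4, 22.0 and 20.4 in ND1 day 7 (3.82, SE 0.10), with 14.8 in neurons. Zfp711, an X-linked gene whose human counterpart is linked to intellectual disability, was at 0.115 FPKM in control day 7, 9.91 in ND1 day 7 and 10.7 in neurons (3.29, SE 0.07). Zfp558 was at 0.457, 11.5 and 4.52 FPKM in the same groups (3.11, SE 0.07), so that neurons lay between the others. In all 4 genes the day 7 groups did not overlap, which was part of the rule for naming them. It held for all 143 members called at day 7 and does not set these genes apart. Zfp580 was at 3.47 ± 0.592 FPKM in control day 7, 23.9 ± 1.32 in ND1 day 7 and 43.1 ± 3.82 in neurons (2.48, SE 0.11). Zfp13 was at 0.447 ± 0.115, 8.91 ± 0.443 and 8.12 ± 0.414 FPKM (2.78, SE 0.07).

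**Figure D2:**
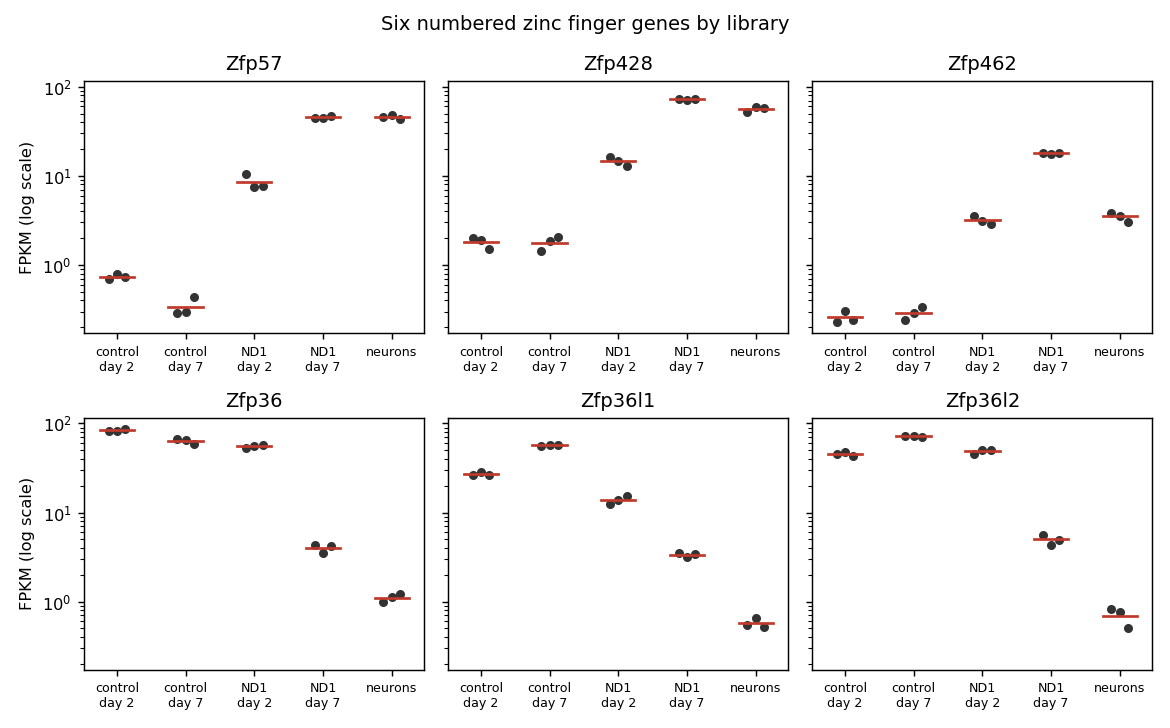
FPKM on a log scale for 6 genes in each of the 15 libraries, with dots for libraries and red bars for the mean of 3. Zfp57, Zfp428 and Zfp462 climb from control through ND1 day 2 to ND1 day 7; Zfp36, Zfp36l1 and Zfp36l2 are lower in ND1 day 7 than in both control groups and ND1 day 2, and lowest in neurons.

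All 3 tested CCCH decay genes were called lower at day 7, against 24.5% of all tested genes. They were the 3 largest falls among the members on the log2(FPKM + 1) scale. This list, too, was chosen with earlier results of these data known, so the count is a description. Zfp36, which encodes tristetraprolin, a decay factor of cytokine messages such as Tnf in macrophages, was at 67.4, 65.4 and 59.0 FPKM in control day 7, 4.35, 3.55 and 4.18 in ND1 day 7, and 0.980, 1.13 and 1.20 in neurons. Every group of libraries stood apart from the next, in the order control, ND1, neurons. The day 7 change was -3.69 (SE 0.07, adjusted p = 1.36e-15). Zfp36l1 was at 56.6 ± 1.01, 3.35 ± 0.171 and 0.574 ± 0.0675 FPKM in these 3 groups (-3.73 at day 7, SE 0.06). Zfp36l2 was at 71.8 ± 1.02, 4.99 ± 0.650 and 0.698 ± 0.174 FPKM (-3.61, SE 0.08).

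At day 7 the ND1 level was 6.30% of the control level for Zfp36, 5.92% for Zfp36l1 and 6.95% for Zfp36l2. As a ratio of means, Zfp91Cntf (3.68%) and Zfp217 (5.97%) also fell this far. All 3 remained higher in ND1 day 7 than in neurons, by 1.25, 1.47 and 1.82 on the log2 scale. The microglial marker sum was likewise higher in ND1 day 7 (280 to 370 FPKM) than in neurons (16.0 to 17.4), and its part in these differences was not tested. At day 2 the 3 genes differed from each other: the control and ND1 means were 83.7 and 55.7 FPKM for Zfp36 (-0.58), 27.2 and 14 for Zfp36l1 (-0.91), and 45.4 and 48.6 for Zfp36l2 (0.10, adjusted p = 0.324). The fourth relative, Zfp36l3, did not reach 1 FPKM in 3 libraries.

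Of 9 tested general transcription and chromatin genes, 2 were called lower at day 7 and none higher. The 22.2% lower is near the 24.5% of all tested genes and is no result about the list. Zfp217, whose human counterpart is an oncogene that works with CoREST and Lsd1, was at 15, 16.7 and 17 FPKM in control day 7, 0.996, 0.965 and 0.944 in ND1 day 7, and 0.144, 0.2 and 0.123 in neurons, 3 groups without overlap (-3.13, SE 0.06, adjusted p = 2.30e-15). Zfp219 fell from 14.6 ± 1.13 to 3.27 ± 0.179 FPKM (-1.87, SE 0.07). The rest of the list differed by less than the size threshold: Zfp148 was at 7.33 and 13 FPKM (0.75), Zfp131 at 8.00 and 13.3 (0.67), Zfp410, known as an activator of Chd4, at 10.6 and 13.7 (0.35), Zfp143 at 10.4 and 6.26 (-0.65), Zfp91 at 31.8 and 18.1 (-0.78), and Zfp64 at 6.72 and 6.06 (-0.13). Zfp281 was listed at 0 in 1 control day 2 and 2 ND1 day 2 libraries and at 5.69 to 11 FPKM in every other library, so its day 2 values were not interpreted.

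The 2 annotated starts of Zfp217 are printed because the CpGs measured in their windows had opposite methylation while the RNA fell. The first lies at chr2:170142626-170142925 and the second at chr2:170131171-170131470, both on the minus strand.
Zfp217 start 1: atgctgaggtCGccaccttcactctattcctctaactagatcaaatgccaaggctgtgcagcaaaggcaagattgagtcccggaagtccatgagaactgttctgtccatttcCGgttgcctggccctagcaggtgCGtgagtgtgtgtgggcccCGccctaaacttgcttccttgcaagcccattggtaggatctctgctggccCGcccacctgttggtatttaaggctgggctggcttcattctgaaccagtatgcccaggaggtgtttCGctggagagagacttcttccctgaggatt
Zfp217 start 2: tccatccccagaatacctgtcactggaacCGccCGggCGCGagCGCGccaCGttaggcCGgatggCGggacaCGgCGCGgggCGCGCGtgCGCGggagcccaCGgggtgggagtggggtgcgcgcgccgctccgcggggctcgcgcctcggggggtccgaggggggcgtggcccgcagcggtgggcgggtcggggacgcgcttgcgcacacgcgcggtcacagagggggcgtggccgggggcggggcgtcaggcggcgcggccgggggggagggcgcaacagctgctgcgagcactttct
The first start had 6 marked CpGs with a mean fraction of 0.939 in control and 0.928 in ND1 cells. The second had 18 marked CpGs of 49, with means of 0.0102 and 0.00588. These 18 lie at -221 to -148 from the start, so the CpGs closer to it were not measured. The mean over the marked CpGs differed between the libraries by no more than 0.02 in either window.

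Of 8 tested genes for RNA-binding and ribosome proteins, 2 were called higher at day 7, and their 25% is near the 25.7% of all tested genes. Zfp326, part of a complex that links transcription and splicing, went from 6.06 ± 0.562 to 21.7 ± 0.0562 FPKM (1.69, SE 0.05), and Zfp706 from 22.0 ± 1.24 to 54.1 ± 1.68 (1.26, SE 0.04). Zfp207, a mitotic spindle protein whose mean over all 15 libraries was the highest of the members, was at 43.1 FPKM in control day 7, 66.2 in ND1 day 7 and 50.7 in neurons (0.61 at day 7). Zfp598, the ubiquitin ligase of collided ribosomes, was at 11.1 and 9.46 FPKM (-0.21), Zfp622 and Zfp593, factors of the large ribosomal subunit, at 16.4 and 15.3 (-0.10) and at 5.78 and 5.83 (0.02), Zfp346, a double-stranded RNA binding protein, at 8.24 and 8.43 (0.04), and Zfp106, an RNA-binding protein needed by motor neurons, at 37.7 and 19.6 (-0.90).

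Other members with high means moved in either direction at day 7. Zfp637 went from 20.9 to 50.9 FPKM (1.25, SE 0.07). Zfp330, a nucleolar protein, was at 21.2 and 32.3 FPKM (0.59). Zfp385a fell from 42.0 to 19.8 FPKM (-1.04, SE 0.07), a call lost at -0.98 without control day 7 replicate 2 and at -0.85 under quantile normalization. Among the other falls, Zfp710 went from 43.1 ± 3.64 to 5.28 ± 0.405 FPKM (-2.81) and Zfp395 from 9.41 ± 0.575 to 1.31 ± 0.0446 (-2.17).

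At day 2, 11 members were called higher in ND1 than in control microglia, 3.4% of the members against a background of 9.09% of all tested genes (9.71% in either direction). All 11 were also called higher at day 7. The control and ND1 means were 1.81 ± 0.281 and 14.6 ± 1.65 FPKM for Zfp428 (2.48, SE 0.10), and 0.738 ± 0.0558 and 8.54 ± 1.63 for Zfp57 (2.44, SE 0.09). The remaining calls ran from Zfp462 (1.74) and Zfp354c (1.72) over Zfp580 (1.31), Zfp13 (1.26), Zfp658 (1.21), Zfp711 (1.14), Zfp704 (1.04) and Zfp804a (1.01) to Zfp558 (1.00). Zfp658 was the exception among them in having no higher mean in ND1 at day 7 than at day 2. It was at 5.72 ± 0.718 FPKM in ND1 day 2 and 4.90 ± 0.134 in ND1 day 7. No member was called lower by limma, against a background of 0.618%, while 63 were lower at an unadjusted p under 0.05. By adjusted p alone, 121 were higher and 55 lower, against 31.6% and 36.3% of all tested genes. Leaving out control day 2 replicate 3 or ND1 day 2 replicate 1 gave 1 lower call. The members' median day 2 change was 0.09, but -0.20 under quantile normalization, where 4 calls remained, those of Zfp428 (2.19), Zfp57 (2.02), Zfp462 (1.22) and Zfp354c (1.20). Without ND1 day 2 replicate 1 the calls of Zfp558 (0.973), Zfp804a (0.970) and Zfp704 (0.989) were lost, and without control day 2 replicate 3 those of Zfp558 (0.951) and Zfp804a (0.997).

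The ND1 effect differed between the days in 105 members: it was greater at day 7 in 87 and smaller, or more negative, in 18, against 20.5% and 20.8% of all tested genes (41.3% in all). By adjusted p alone the counts were 229 and 61, against 46.3% and 39.2%. The members' shares by call were 26.9% and 5.56%. The largest positive differences were those of Zfp57 (2.67, SE 0.13), Zfp81 (2.44, SE 0.14), Zfp428 (2.26, SE 0.13) and Zfp711 (2.15, SE 0.09). Zfp81 was at 4.07 FPKM in control day 2, 5.71 in ND1 day 2, 1.62 in control day 7 and 17.8 in ND1 day 7, so its difference also contains a lower control level at day 7. The largest negative differences were those of Zfp36l2 (-3.71, SE 0.12), Zfp36 (-3.11, SE 0.09), Zfp36l1 (-2.81, SE 0.09) and Zfp217 (-2.61, SE 0.08). These also contain changes of the control level. The control mean at day 7 over that at day 2 was 2.08 for Zfp36l1, 1.58 for Zfp36l2 and 1.54 for Zfp217, but 0.764 for Zfp36.

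**Figure D3:**
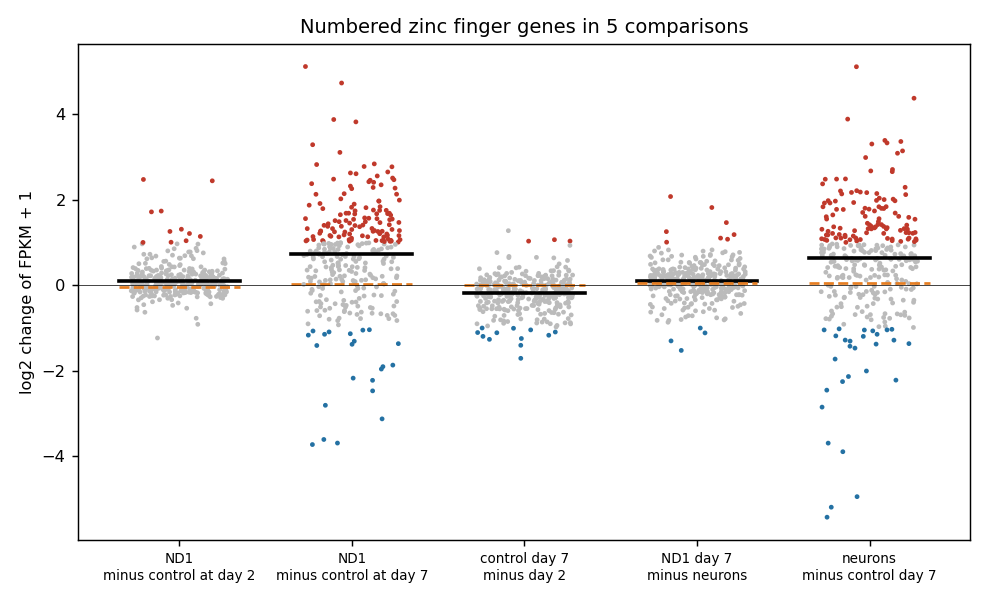
Change of log2(FPKM + 1) for each of the 324 Zfp genes in 5 comparisons, with red points called higher, blue points called lower and grey points not called. Black bars are the members' medians and dashed orange bars the medians of all 13602 tested genes; at day 7 the members' median of 0.74 lies above the 0.04 of all genes, and between the control days the members' -0.17 lies below 0.01.

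Against cortical neurons, 110 members (34%) were called higher in neurons than in control day 7 and 28 (8.64%) lower. The backgrounds were 28.1% and 25.3% (53.4% in all). By adjusted p alone the counts were 223 and 75, against 47.3% and 43.7%. Under quantile normalization 85 of 324 members were called higher and 32 lower, against 27.6% and 25.4% of all tested genes. The count of higher calls thus lay near the background there. These values share the control day 7 libraries with the ND1 comparison at day 7. Zfp57 was 5.11 and Zfp428 4.38 higher in neurons, and Zfp36l2 (-5.43), Zfp36l1 (-5.19) and Zfp36 (-4.95) were lowest. Zfp9 was at 0.656 FPKM in control day 7, 8.42 in ND1 day 7 and 15.7 in neurons (3.33 in neurons, 2.51 in ND1).

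Directly compared, ND1 day 7 and neurons differed by a call in 12 members, 8 higher in ND1 and 4 lower, against 7.29% and 6.24% of all tested genes (13.5% in all). By adjusted p alone the counts were 136 and 77, against 41.5% and 33.6%. The members' called shares of 2.47% and 1.23% lay below both backgrounds. Of the 143 members called between ND1 and control at day 7, 133 (93%) were not called between ND1 and neurons, against 80.2% of all tested genes called at day 7. An uncalled difference does not show that they were equal. Higher in ND1 were Zfp462 (2.08), the 3 CCCH genes, Zfp558 (1.18), Zfp704 (1.10), Zfp423 (1.08) and Zfp41 (1.01). Lower were Zfp941 (-1.53, at 1.19 ± 0.0257 FPKM in ND1 and 5.31 ± 0.241 in neurons), Zfp385b (-1.30, at 2.44 ± 0.0937 and 7.5 ± 0.451), Zfp804a (-1.12) and Zfp804b (-1.0). The call for Zfp804b was lost without ND1 day 7 replicate 1 or 3 or without neuron replicate 1, with changes of -0.979, -0.995 and -0.949. Zfp804b passed the filter through neurons alone and Zfp423 through ND1 day 7 alone. Their values here are therefore a description, although both are among the counts. The members' median difference was 0.10, and -0.01 under quantile normalization.

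Control microglia themselves changed between the days. Between day 2 and day 7, 12 members fell and 3 rose, against 3.79% and 3.9% of all tested genes (7.7% in all). By adjusted p alone the counts were 160 lower and 51 higher, against 32% and 33.8%, and 67.6% of members had a change below 0 against 47.9% of tested genes. The members' 3.7% lower calls lay near the background, while their 0.926% higher calls lay below it. With a pseudocount of 0.1 FPKM, 29 of 324 members were called lower, above the 5.71% of all tested genes. The place of the lower calls against the background thus depended on the pseudocount. Zfp51 was at 8.51, 9.30 and 8.01 FPKM at day 2 and 2.62, 2.71 and 2.54 at day 7, 2 groups without overlap (-1.41, SE 0.09, adjusted p = 7.5e-09). Zfp346 fell from 21.1 ± 0.662 to 8.24 ± 1.00 FPKM (-1.27), Zfp72 from 4.88 ± 0.536 to 1.48 ± 0.223 (-1.25), Zfp429 from 9.72 ± 0.478 to 3.70 ± 0.528 (-1.20) and Zfp951 from 7.78 ± 0.366 to 2.91 ± 0.413 (-1.17). The largest fitted fall was that of Zfp91Cntf, a readthrough symbol that RefSeq lists as a long noncoding RNA over Zfp91 and Cntf, from 8.08 ± 0.386 to 1.86 ± 0.859 FPKM (-1.71); its fragments overlap those of Zfp91, so the value is uncertain.

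The 3 that rose were Zfp90, from 10.4 ± 0.184 to 22.8 ± 0.434 FPKM (1.07, SE 0.04), Zfp395, from 4.08 to 9.41 (1.03, and 0.93 without a call under quantile normalization), and Zfp36l1, from 27.2 to 56.6 (1.03). The astrocyte marker sum rose in these libraries too, from 18.1 to 19.8 FPKM at day 2 to 67.7 to 73.5 at day 7, as did the microglial one, from 3955 to 4088 up to 7150 to 7397, and their part was not tested. The fibroblast and mural sum went from 1.05 to 1.88 FPKM at day 2 to 24.5 to 31.1 at day 7 and the oligodendrocyte sum from 8.21 to 8.71 up to 16.5 to 17.9, while the neuronal sum went from 17.5 to 20.9 down to 7.73 to 11.5. The part of these in the results was not tested either. Both comparisons use the control day 7 libraries, and 2 members, Zfp811 and Zfp948, were called lower between the control days and higher in ND1 at day 7. Zfp948 was at 6.48 FPKM in control day 2, 2.46 in control day 7 and 7.94 in ND1 day 7. Of the 121 members called higher at day 7, 118 also had every ND1 day 7 library above every control day 2 library, and all 22 called lower had every one below. Over all tested genes the same held for 99% of those called higher and 96.9% of those called lower, so these shares are near the background.

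Of the 12 members that fell between the control days, most lay on chromosomes 17 and 13. Over all tested genes 3.79% were called lower between these days. A change below 0 was found in 47.9% of tested genes and in 67.6% of members. Other genes on these chromosomes were not compared. Chromosome 7 carried 80 members and had none called lower, with a median change of -0.09; chromosome 17, with 41 members, had 7 of the 12 falls and a median of -0.41; and chromosome 13, with 32 members, had 3 and a median of -0.53. Members with gaps of at most 200 kb were joined into runs of at least 5, a rule set after these values had been seen, which gave 13 runs with 122 members. In the run at chr17:21383707-22456689 all 14 members had a change below 0, with a median of -0.91 and 5 calls. In the run at chr13:67038594-67827000 all 22 had a change below 0, with a median of -0.53 and 1 call. All tested members of both runs stayed below 0 under every alternative run. The count of calls in the chromosome 17 run did change: it was 3 without control day 2 replicate 2 or control day 7 replicate 2, 2 under quantile normalization and 8 with a pseudocount of 0.1. With that pseudocount the chromosome 13 run had 6 calls. A run of 5 members on chromosome 7, chr7:27731409-28014210, also had all members below 0 under every alternative, with a median of -0.33 and no call.

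The median member level in the chromosome 17 run was 3.61 FPKM in control day 2, 1.86 in control day 7, 3.59 in ND1 day 2, 3.09 in ND1 day 7 and 2.98 in neurons. In the chromosome 13 run it was 2.80, 1.60, 2.90, 2.18 and 2.34 FPKM. Control day 7 was the lowest group in both. Another run of 12 members on the same chromosome, chr17:32765496-33394637, had a median control change of -0.02, with 6 members below 0. Neighbouring Zfp genes can have related sequences, which were not compared here, and how reads shared between genes were assigned is not given in the sources used here, so values of single genes in a run are uncertain.

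**Figure D4:**
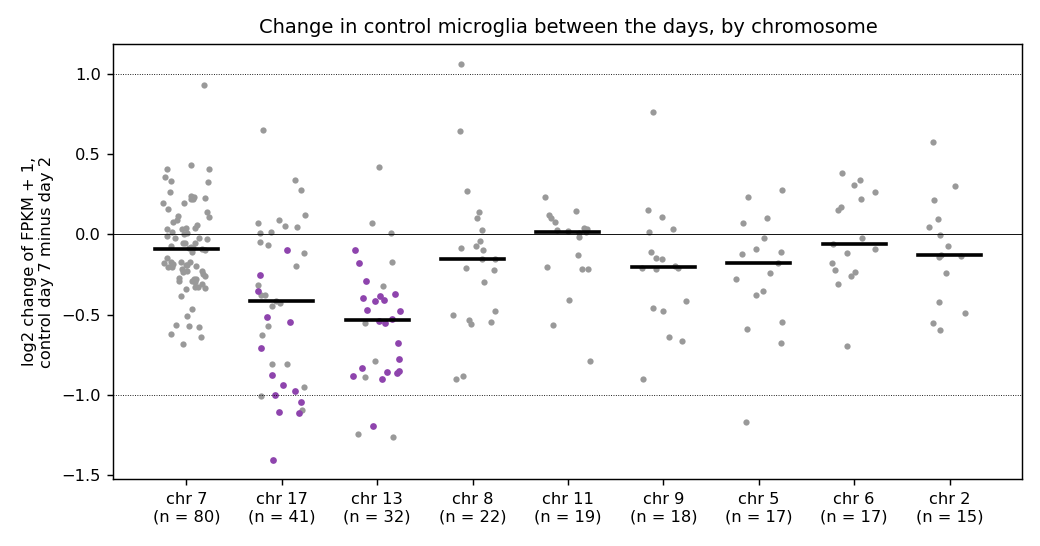
Change of log2(FPKM + 1) between control day 2 and control day 7 for members on the 9 chromosomes that carry the most of them. Each point is a gene, purple in the chromosome 17 and chromosome 13 runs described in the text, black bars are medians and dotted lines mark a change of 1 in either direction; the purple points all lie below 0.

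Methylation at the gene starts was low for most members in both libraries. The mean methylated fraction of CpGs within 500 bases of the first listed start, with at least 5 CpG values, was under 0.2 for 250 of 263 members in control (95.1%, exact 95% binomial interval over genes 91.7 to 97.3) and for 250 of 264 in ND1 cells (94.7%, 91.3 to 97.1). Over all tested genes the shares were 89.3% in both. Intervals cover the number of genes only, since the depth is unknown. The median fraction was 0.0245 in control and 0.0253 in ND1 cells, and over whole gene bodies it was 0.669 and 0.672. A RefSeq promoter was found for 267 members; Zfp462, Zfp354c and Zfp36l2 were not among them.

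The starts changed little between the 2 libraries. The median difference, ND1 minus control, was 0.0011 over 263 members, and 5 windows differed by more than 0.05. The one that differed by more than 0.1 was the first start of Zfp57, from 0.631 over 10 CpGs to 0.742 over 11, a start whose RNA output cannot be read from gene-level FPKM. Of the 98 members called higher at day 7 with both windows, 93 were low in control and 93 in ND1 cells. Of the 17 called lower, 16 and 15 were low, and of the 148 not called, 141 and 142. Members that rose, fell or did neither thus had low-methylated starts in most cases, in both libraries.

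**Figure D5:**
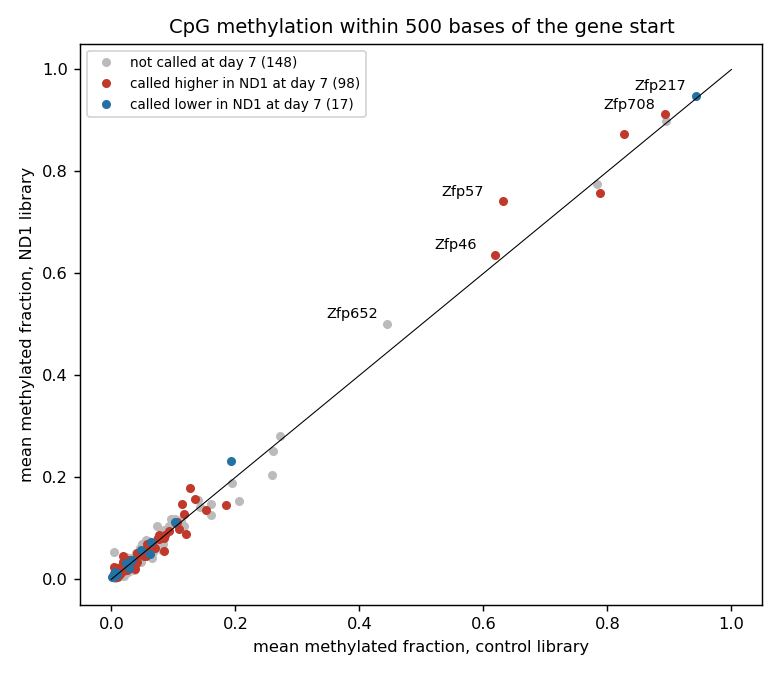
Mean methylated fraction of CpGs within 500 bases of the first listed start in the control (x axis) and ND1 (y axis) bisulfite libraries for 263 members, 1 library each. Red points were called higher in ND1 RNA at day 7 (98), blue lower (17) and grey neither (148), and the line marks equal fractions; nearly all points lie close to it, with Zfp57 above at 0.631 and 0.742.

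In each library 8 members had a fraction over 0.6, among them Zfp217 (0.943 and 0.949) and Zfp708 (0.892 and 0.912), printed above, and Zfp46 (0.619 and 0.637), whose second start was at 0.0132 and 0.00996. The promoters were also searched for CAGATG and CAGCTG, E-box sequences of the kind bound by neurogenic basic helix-loop-helix factors, on both strands. Over 10160 promoters of the same length CAGATG occurred in 11.4% and CAGCTG in 15%. Among the 267 member promoters the shares were 14.6% and 18%, and among the 100 of members called higher at day 7 they were 16% and 13%. A match is only a run of letters. The member promoters held a median of 15 CpGs in 300 bases, against 21 over all.

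Other families with zinc finger names were counted at day 7 for comparison. Over all tested genes 25.7% were called higher and 24.5% lower. Of 39 tested Zbtb genes 8 (20.5%) were called higher and 6 (15.4%) lower, and of 19 Zc3h genes 4 (21.1%) and 4 (21.1%). The counts were 3 (15%) and 8 (40%) of 20 Zdhhc genes, 2 (18.2%) and none of 11 Zkscan genes, and 3 (33.3%) and 2 (22.2%) of 9 Zscan genes. They were none and 1 of 7 Zfand genes, 1 and 2 of 5 Zmat genes, and 1 and 1 of 2 Znf genes. The difference between these families and the Zfp genes was not tested. The Zbtb median was 0.22 and the Zdhhc median -0.18 on the log2 scale, against 0.74 for the Zfp genes.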

How the data were processed

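Gene-level FPKM values were computed by the authors with TopHat, Bowtie2, Cuffdiff and Cufflinks on mm10, per the submitters' processing notes, which give no versions. For bisulfite sequencing the authors deposited the methylated fraction of each CpG without read counts, made with tools not given in the sources used here. Chromatin libraries were not analysed here.

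The members and gene lists were chosen with earlier results of these data known. Genes at 1 FPKM or more in at least 3 of 15 libraries were fitted as log2(FPKM + 1) with limma 3.58.1 in R 4.3.3 (5 group means, intensity trend, no replicate block), with Benjamini-Hochberg adjustment over all 13602. Replicate numbers were not treated as pairs. The script was tested on simulated data. Named genes were the 6 largest rises and falls among the calls of each comparison whose 2 groups did not overlap, a condition that every called member met. For the difference between days the 4 largest in each direction were named without that condition. The 8 highest means, the listed genes and those next to the filter were named too. Zfp41, Zfp46, Zfp599, Zfp658, Zfp811 and Zfp948 were chosen after their values were seen. Promoters and coordinates are from RefSeq, GRCm38.p6, the assembly mm10 stands for. Methylation has 1 library a group and no test. Alternatives were another pseudocount, other filters, quantile normalization, a replicate block, fits of the compared groups only, each library left out, and other methylation windows, CpG minimums and cut-offs.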

Additional observations from a re-analysis of the deposited data

Results flagged for a closer look

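The ND1 effect was called different between the days in 105 members by the test of the difference itself (limma, adjusted over all 13602 genes). This was 32.4% of the members, against 41.3% of all tested genes. The 8 genes given here are only the 4 largest differences in each direction. Such differences also contain any change between the control days. The ND1 effect was more negative at day 7 than at day 2 for Zfp36l2 (-3.71 on the log2 scale), Zfp36 (-3.11), Zfp36l1 (-2.81) and Zfp217 (-2.61). It was more positive at day 7 for Zfp57 (2.67), Zfp81 (2.44), Zfp428 (2.26) and Zfp711 (2.15). The smallest adjusted p of the 8 was 1.73e-12, for Zfp36, and the largest 1.45e-09, for Zfp428.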

How the results depend on the processing

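None of the 384 results for the 64 named genes changed direction with a call: of 4926 alternative values, 4843 kept their side of the threshold, 32 lost a call and 51 gained one. A pseudocount of 0.1 FPKM gave 36 members higher at day 2 (11 as reported), 134 with a greater effect at day 7 (87), and 6 higher and 29 lower between the control days (3 and 12). With that pseudocount 17.4% of all tested genes were called higher at day 2 and 25% had a greater effect at day 7. Between the control days 8.2% were called higher and 5.71% lower, so the 29 of 324 members lower stood above the background. Quantile normalization gave 4 higher at day 2, against 6.01% of all tested genes. On adjusted p alone, the counts higher and lower were 121 and 55 at day 2, 229 and 69 at day 7, 229 and 61 for the difference, 51 and 160 between control days, 136 and 77 for ND1 day 7 against neurons, and 223 and 75 for neurons against control. The low-methylated share was 83.0% in control and 83.3% in ND1 cells with windows of 1000 bases, 97.68% in ND1 cells with 250 bases, 87.1% and 86.36% with a limit of 0.1, and 97.73% in both with any listed start, an alternative chosen after seeing the data.

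Leaving out 1 library gave 8 to 13 members higher and 0 to 1 lower at day 2, 117 to 126 and 21 to 22 at day 7, 84 to 91 and 18 to 19 for the difference, 3 to 4 and 10 to 12 between control days, 7 to 8 and 3 to 4 for ND1 day 7 against neurons, and 105 to 110 and 25 to 29 for neurons against control. Same-numbered replicates did not deviate together (correlations of -0.226 to 0.161 in 30 pairs, 2 above 0.1; 2 of 15 libraries correlated best with their own number), and the fit with a replicate block gave the same counts: 11 and 0, 121 and 22, 87 and 18, 3 and 12, 8 and 4, 110 and 28. Calls of neurons against control were lost for Zfp618 without control day 7 replicate 1 (0.986), for Zfp637 without control day 7 replicate 2 (0.975) or 3 (0.981) or neuron replicate 3 (0.955), and for Zfp91 without neuron replicate 3 (-0.987). Depth limits weak genes, and methylation depth is unknown.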
